A study of Mus musculus with 10 samples.

Results

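The inhibitors of cyclin-dependent kinases (CDKs) form the Cip/Kip family, Cdkn1a (p21), Cdkn1b (p27) and Cdkn1c (p57), and the Ink4 family, Cdkn2a (p16Ink4a and p19Arf), Cdkn2b (p15), Cdkn2c (p18) and Cdkn2d (p19Ink4d). All 7 genes were on the array, read by 10 probes in 37 spots, out of 27670 genes, 41174 probes and 43379 non-control spots. They were taken as the probes whose gene name in the files, or its current symbol, is one of these 7. Whole lung of male mice aged 8 weeks was compared between 5 wild-type mice and 5 p53-null mice, both labelled as C57BL/6J. Every mouse had inhaled aerosolized saline for 30 min, so both groups carry that treatment and no untreated lung was analysed here. The labels do not name the p53 allele. The design text calls the 5 mice of a group biological replicates and the saline lungs a baseline, and the series' title places them in a study of p53 in bacterial pneumonia. Each 1-colour Agilent array held 1 RNA sample. In whole lung, fewer cells of a type and less RNA per cell cannot be told apart.

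CDKs drive the cell cycle when bound to cyclins, and they release E2F transcription factors by phosphorylating RB proteins. Cip/Kip proteins bind CDK2 and other cyclin-CDK complexes, while Ink4 proteins bind CDK4 and CDK6 and keep D-type cyclins away. Cdkn1a is a direct transcriptional target of p53. The Cdkn2a locus makes 2 unrelated proteins from overlapping transcripts: p16Ink4a inhibits CDK4 and CDK6, and p19Arf blocks Mdm2, the ubiquitin ligase that removes p53.

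The 250 bases before the first of 2 annotated Cdkn1a starts are shown because they carry a p53-type site. They lie at chr17:29090729-29090978 on the plus strand of GRCm38.p6 (RefSeq), and the capitals mark the site.
Cdkn1a upstream window: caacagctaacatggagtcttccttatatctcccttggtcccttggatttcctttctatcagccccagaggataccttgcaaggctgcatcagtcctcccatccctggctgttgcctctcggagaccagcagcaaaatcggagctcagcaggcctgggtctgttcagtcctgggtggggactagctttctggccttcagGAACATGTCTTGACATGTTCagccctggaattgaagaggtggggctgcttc

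The 20 capital bases, from 29090928 to 29090947, begin 51 bases before that start and match the p53 full-site consensus with 1 mismatch. Among 32851 promoter windows of 300 bases, 29 (0.0883%) held such a match with at most 1 mismatch on this palindromic consensus. The letters CATGNNNNNNCATG, which lie inside the site and read the same on both strands, were in 234 windows (0.712%). RefSeq windows were matched for 6 of the 7 genes, 9 windows in all, and the Cdkn1a window above was the single one with either match. On either strand, the GC box GGGCGG was in 7 of the 9 windows, against 35.7% of all windows, and the E2F-type letters TTTCGCGC or TTTGGCGC were in 0 of 9, against 0.813% of all. A match describes letters only, since binding was not measured.

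The first 30 of the 60 bases of the Cdkn1a, Cdkn2a and Cdkn1b probes are given because the 2 largest differences rest on the first pair, and because the 3 Cdkn1b probes gave unlike results.
Cdkn1a probe 1: ctaagggagctcacaggacactgagcaatg
Cdkn2a probe 1: cacttctagcgatgctagcgtgtctagcat
Cdkn1b probe 1: ttcattgcctgtgtatgagaaaaacttgga
Cdkn1b probe 2: agtcagcgcaagtggaatttcgactttcag
Cdkn1b probe 3: attagccaagcaaccataagactctagtca

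Values below are log2 signals relative to the 75th percentile of the same array, so 0 is that percentile. A difference is p53-null minus wild type with its standard error (SE) from limma, n = 5 arrays a group. Its p-value is Benjamini-Hochberg adjusted over all 21108 genes tested, and a gene is called when that value is under 0.05. Levels are not compared between genes, because probes bind unequally.

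The targeted gene, Trp53, was examined first. The Trp53 probe printed in 10 spots read -3.15 to -2.66 on the p53-null arrays and -2.22 to -1.43 on the wild-type arrays, a difference of -1.28 ± 0.16 (limma adjusted p = 0.00589 over probes). A further Trp53 probe gave 0.31 ± 0.28 (limma adjusted p = 0.504 over probes). Which of them lies in the deleted part is not given in the labels. The value -2.22, nearest to the p53-null arrays, belonged to wild-type array 5. Over 20606 genes, that array correlated at a mean r of 0.972 with the other wild-type arrays and 0.979 with the p53-null arrays. Wild-type array 1 (0.9798 and 0.980) and wild-type array 2 (0.9744 and 0.974) were near a tie, in the same order. The differences of the inhibitors and of the list genes named by rule are therefore given with and without wild-type array 5. Those of Cdk4, Cdk2 and E2f1, which were added later, are given for all 10 arrays only.

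Spots well above background made up 71.4% to 84.0% of an array. Lung markers were high on every array, with mean log2 levels of 4.62 to 5.13 for 6 alveolar type 2 genes, 3.76 to 4.17 for 6 alveolar type 1 genes and 3.01 to 3.41 for 6 endothelial genes across the 10 arrays. Markers of some blood cells differed between the groups: 7 of 9 tested neutrophil genes, 7 of 8 B cell genes and 6 of 11 T and NK cell genes were called higher in p53-null lung. Of 3 tested red cell genes 0 were called, and of 9 macrophage genes 1 was called higher and 1 lower. Of 7 fibroblast genes, 4 were called lower. Skeletal muscle genes were high on 3 arrays (p53-null 4 and 5, wild-type 2), at 1.88 to 2.98 against -3.04 to -2.14 on the others. The part of these cells in the results below was not tested unless a value is given.

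In p53-null lung, the Cip/Kip genes Cdkn1a and Cdkn1c fell, and the Ink4 genes Cdkn2a and Cdkn2d rose. The called genes were thus 4 of the 7 inhibitors, whereas 7.49% of all tested genes were called, 4.60% higher and 2.89% lower. The other 3 members were not called. At the probes that stand for the genes, the 3 Cip/Kip differences were all negative and the 4 Ink4 differences all positive. The Cdkn1b probe that stands for the gene is, however, listed under 0 RefSeq transcripts. Probe 2 of Cdkn1b, listed under 1, was at 0.080. The Cdkn2b difference, at 0.041, turned negative when arrays were scaled by their median (-0.029) or not scaled (-0.12). It was also negative with the GC trend removed (-0.026), within the lower range of slide numbers (-0.053) and without p53-null array 2 (-0.021). The median difference was -0.33 for Cip/Kip and 0.35 for Ink4, beside 0.0497 for all tested genes. Wild-type and p53-null arrays did not overlap for 4 of the 7 genes (Cdkn1a, Cdkn1b, Cdkn1c and Cdkn2a), whereas 9.33% of all genes had such a gap.

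**Figure D1:**
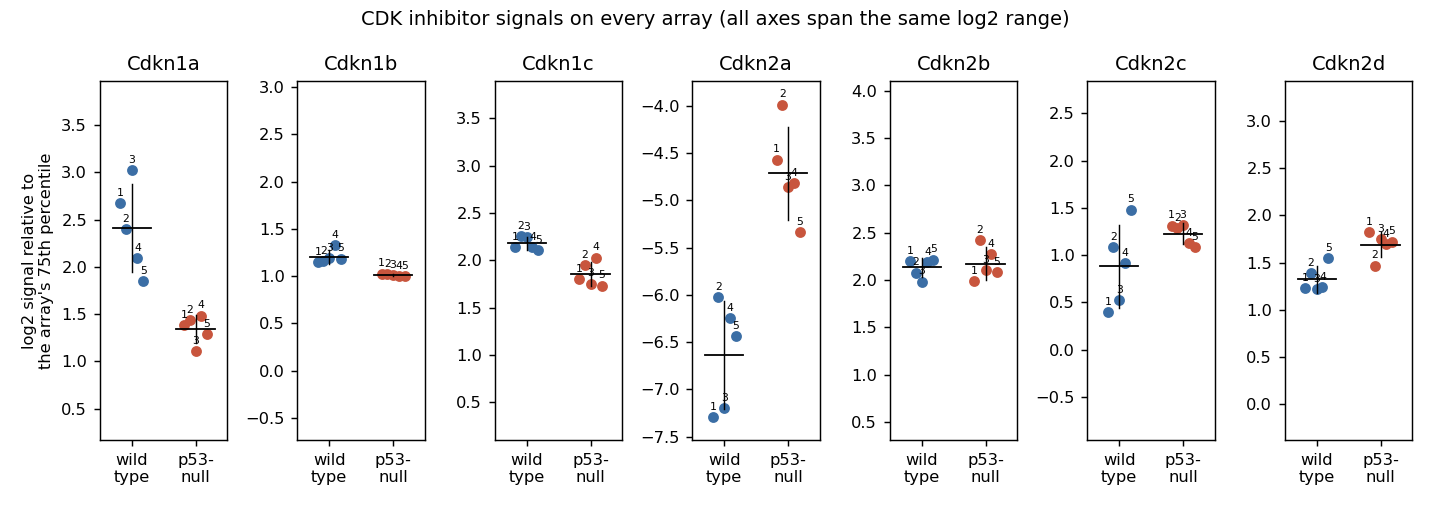
Log2 signal relative to the array's 75th percentile for the probe that stands for each CDK inhibitor gene, on 5 wild-type (blue) and 5 p53-null (red) arrays numbered by replicate; bars show the mean ± SD. Axes differ in level but span the same log2 range, so the wide gaps of Cdkn1a and Cdkn2a can be set beside the narrow ones of Cdkn1b and Cdkn1c.

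Cdkn1a encodes p21, the inhibitor through which p53 halts the cell cycle in G1. Its probe was printed in 10 spots and is placed by the files at chr17:27293819-27293878 on the plus strand (mm7). Wild-type arrays 1 to 5 read 2.67, 2.40, 3.02, 2.09 and 1.85, and p53-null arrays 1 to 5 read 1.38, 1.44, 1.11, 1.48 and 1.29. Every wild-type array lay above every p53-null array, by 0.36 at the nearest point, where wild-type array 5 came closest to p53-null array 4. The difference was -1.07 ± 0.20 (95% interval -1.52 to -0.61, limma adjusted p = 0.0232), so p53-null lung held 47.8% of the wild-type signal. Of the 21108 genes, 41 had a more negative difference.

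Wild-type lungs varied more in Cdkn1a, with an SD of 0.46 (n = 5), than p53-null lungs, with an SD of 0.15 (n = 5). The highest wild-type value was on array 3, scanned on another day than the rest, and the lowest on array 5. The difference in spread was not tested. Transcript remained well above background in all 50 unflagged p53-null spots. The exact two-sided permutation test over the 10 arrays gave p = 0.00794, the smallest that 5 against 5 allows. The call was kept in 6 of 10 fits that each left out 1 array. It was lost on leaving out wild-type array 2 or any of p53-null arrays 1, 3 and 5, with limma adjusted p up to 0.0645, while the difference stayed between -1.21 and -0.91. It was -1.21 without wild-type array 5 (limma adjusted p = 0.00187). Without the 3 arrays high in skeletal muscle genes it was -1.10 and was not called (limma adjusted p = 0.207).

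Cdkn1c encodes p57, an imprinted inhibitor expressed in many quiescent cells. Its probe is placed at chr7:139886128-139886187 on the minus strand (mm7). Wild-type arrays 1 to 5 read 2.14, 2.26, 2.25, 2.14 and 2.11, and p53-null arrays 1 to 5 read 1.80, 1.95, 1.75, 2.03 and 1.73. The groups were separate by 0.078, and the p53-null arrays were the more spread. The difference of -0.33 ± 0.081 (limma adjusted p = 0.0430, exact permutation p = 0.00794) left 79.8% of the wild-type signal. Of the 10 fits without 1 array, only that without wild-type array 5 kept the call (-0.34, limma adjusted p = 0.0118), and the others gave limma adjusted p up to 0.107.

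Fibroblast markers were also lower in p53-null lung as a mean, with 4 of the 7 genes called lower and Tcf21 at 0.21 ± 0.18. The mean level of 7 fibroblast genes was 3.71 to 3.93 on wild-type arrays and 3.19 to 3.42 on p53-null arrays. The mean of 6 endothelial genes, of which 0 were called, was 3.20 to 3.41 and 3.01 to 3.29 in the same order, with overlapping groups. Their part in the lower Cdkn1a and Cdkn1c signals was not tested.

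Cdkn1b encodes p27, which holds cells in quiescence and is controlled largely by protein turnover. Its 3 probes differed. Probe 1 is listed under 0 RefSeq transcripts, and probes 2 and 3 under 1 each. Probe 1, which stands for the gene and is placed at chr6:134939519-134939578 (mm7), read 1.15, 1.16, 1.20, 1.33 and 1.19 on wild-type arrays 1 to 5 and 1.03, 1.02, 1.01, 1.0 and 1.0 on p53-null arrays 1 to 5. These groups were separate, but by 0.12 only, and the difference of -0.19 ± 0.0625 was not called (limma adjusted p = 0.0863). The exact permutation test gave p = 0.00794 for that probe. Without wild-type array 5 the difference of -0.19 was called (limma adjusted p = 0.0323).

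Probe 2 of Cdkn1b, printed in 10 spots at chr6:134935407-134935465 (mm7), ran from -3.24 to -2.89 on wild-type arrays and from -3.28 to -2.82 on p53-null arrays. Its difference was 0.080 ± 0.11 (limma adjusted p = 0.689 over 31588 probes). Probe 3, at chr6:134937910-134937969 (mm7), gave -0.54 ± 0.16 (limma adjusted p = 0.0620 over probes), with 4 of 5 wild-type arrays well above background. The most densely printed Cdkn1b probe thus showed overlapping groups, and the other pair pointed down without passing the test. Over all 31588 probes, 7.11% were called, and among the 10 CDK inhibitor probes those of Cdkn1a, Cdkn1c and Cdkn2a were.

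**Figure D2:**
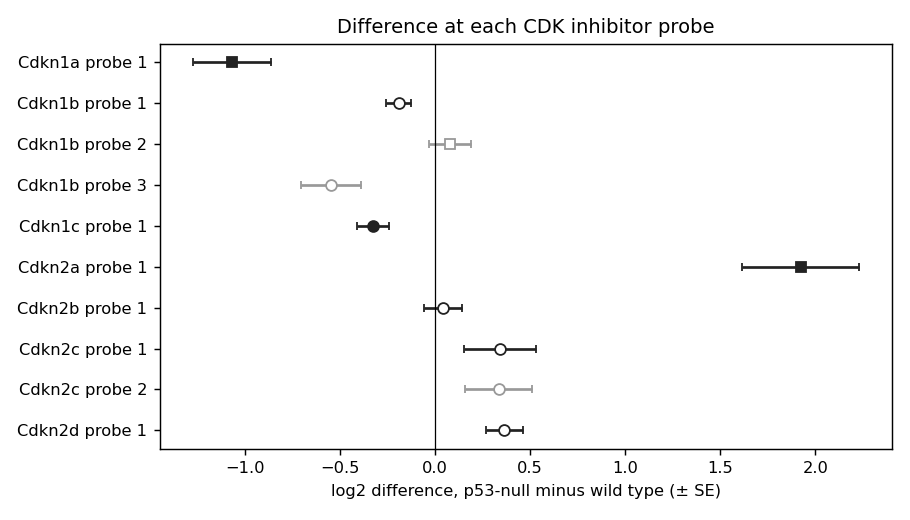
Log2 difference (p53-null minus wild type, ± SE) at each of the 10 CDK inhibitor probes. Squares are probes printed in 10 spots, black marks the probe that stands for its gene, and filled symbols have an adjusted p under 0.05 over all probes; the 3 Cdkn1b probes lie on both sides of 0.

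Cdkn2a was higher in p53-null lung, and its difference was larger in size than that of Cdkn1a with the deposited background but not with normexp background correction (1.01 against -1.08). The files place its 10-spot probe at chr4:88678367-88678426 on the minus strand (mm7) and list it under 2 RefSeq transcripts of the locus, so p16Ink4a and p19Arf messages were not told apart. Wild-type arrays 1 to 5 read -7.29, -6.02, -7.20, -6.24 and -6.43, and p53-null arrays 1 to 5 read -4.57, -3.99, -4.86, -4.82 and -5.34. All p53-null arrays were above all wild-type arrays, with a gap of 0.69. The difference was 1.92 ± 0.31 (95% interval 1.23 to 2.61, limma adjusted p = 0.0149, exact permutation p = 0.00794), a 3.79-fold higher signal.

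The Cdkn2a signal was low in both groups. Unscaled processed signals were 27.0, 60.7, 25.8, 58.4 and 28.0 on wild-type arrays 1 to 5 and 118, 212, 124, 122 and 78.7 on p53-null arrays 1 to 5. In p53-null lung 50 of 50 unflagged spots were well above background, against 31 of 48 in wild-type lung. Wild-type arrays 2, 3 and 4 passed on every unflagged spot, array 5 on 2 of 9 and array 1 on 0 of 10. The fold therefore depended on how background was treated: with normexp correction the difference was 1.01 ± 0.18 (limma adjusted p = 0.0184). With signals raised to each array's lowest well-above-background signal it was 1.81 ± 0.28 (limma adjusted p = 0.0132), an alternative chosen after seeing the data. The call was kept in each of the 10 fits without 1 array, at 1.74 to 2.08, and was 1.97 without wild-type array 5 (limma adjusted p = 0.00360). The call was lost without the 3 arrays high in skeletal muscle genes (2.32, limma adjusted p = 0.112) and without scaling (1.76, limma adjusted p = 0.0760). The same held within the lower range of slide numbers (1.69, limma adjusted p = 0.158) and with slide as a fixed block (2.25, limma adjusted p = 0.463). It also held with the replicate number as a block (1.92, limma adjusted p = 0.106). Cdkn2a did not pass the filter on all 10 arrays.

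**Figure D3:**
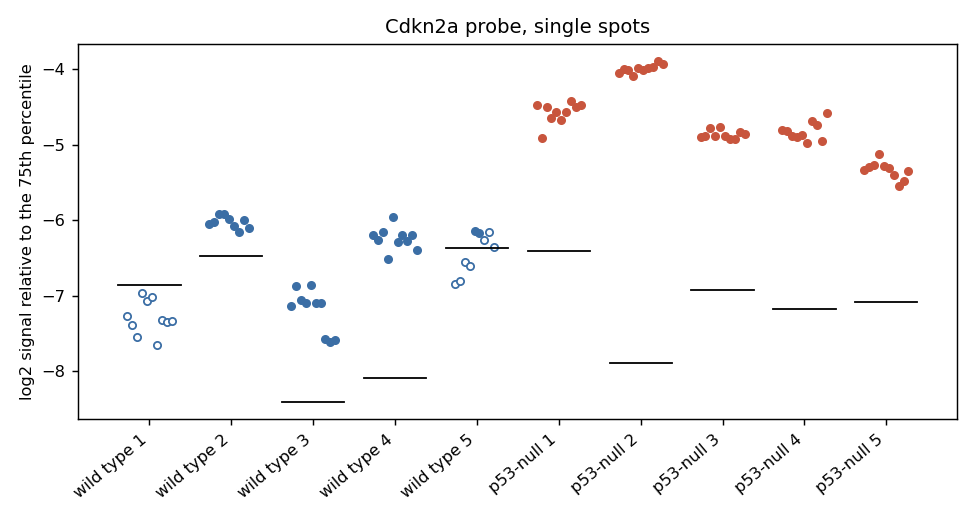
Log2 signal, relative to the array's 75th percentile, of each unflagged spot of the Cdkn2a probe on 5 wild-type (blue) and 5 p53-null (red) arrays. Filled points are well above background, open points are not, and each black line is the lowest signal well above background on that array; all 50 p53-null spots lie above those lines, while wild-type array 1 has 0 of 10 spots well above background.

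Blood cell markers rose in the same lungs as Cdkn2a. The mean level of 7 B cell genes was -2.20 to -1.14 on wild-type arrays and -0.53 to 0.51 on p53-null arrays, that of 9 neutrophil genes was -3.12 to -2.43 and -1.84 to -0.15, and that of 11 T and NK cell genes was -2.11 to -1.35 and -1.31 to -0.79. Among p53-null arrays, array 5 was lowest in Cdkn2a (-5.34) and in neutrophil genes (-1.84). Array 4 was lowest in B cell genes (-0.53) and in T and NK cell genes (-1.31). The highest were array 2 in Cdkn2a, array 1 in B cell and neutrophil genes, and array 3 in T and NK cell genes. In neutrophil genes array 2 read -1.64. The part of those cells in the Cdkn2a signal was not tested.

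Cdkn2d encodes p19Ink4d, an inhibitor of CDK4 and CDK6, and its probe is placed at chr9:21165094-21165153 on the minus strand (mm7). Wild-type arrays 1 to 5 read 1.23, 1.39, 1.22, 1.24 and 1.55, and p53-null arrays 1 to 5 read 1.82, 1.47, 1.75, 1.70 and 1.72. The groups overlapped, since wild-type array 5 was above p53-null array 2. The difference of 0.37 ± 0.096 passed narrowly over genes (limma adjusted p = 0.0494) and missed over probes (limma adjusted p = 0.0516). The exact permutation test gave p = 0.0159. Without wild-type array 5 it was 0.42 (limma adjusted p = 0.00595), and without any other single array the call was lost, with limma adjusted p up to 0.123.

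Cdkn2c encodes p18, another inhibitor of CDK4 and CDK6, and was read by 2 probes that share 40 of their 60 bases. The one that stands for the gene, at chr4:109037613-109037672 on the minus strand (mm7), read 0.40, 1.09, 0.53, 0.92 and 1.48 on wild-type arrays 1 to 5 and 1.31, 1.28, 1.32, 1.13 and 1.09 on p53-null arrays 1 to 5. Wild-type lungs had an SD of 0.44 (n = 5) and p53-null lungs 0.11 (n = 5), and wild-type array 5 was the highest of all 10. The difference of 0.34 ± 0.19 was not called (limma adjusted p = 0.269, 95% interval -0.08 to 0.77, exact permutation p = 0.119). The overlapping probe gave 0.34 ± 0.18 (limma adjusted p = 0.250 over probes). Without wild-type array 5 the difference was 0.49 ± 0.14 and was called (limma adjusted p = 0.0305).

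Cdkn2b encodes p15, the TGF-beta-induced inhibitor that neighbours Cdkn2a in the genome. It ran from 1.98 to 2.21 in wild-type lung and from 1.99 to 2.42 in p53-null lung. The difference of 0.041 ± 0.098 was not called (limma adjusted p = 0.826, exact permutation p = 0.675), with a 95% interval of -0.18 to 0.26. It was 0.062 without wild-type array 5 (limma adjusted p = 0.678). Its locus neighbour Cdkn2a gave 1.92 on the same arrays. That the 2 differences are unlike was not tested.

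Leaving out wild-type array 5 raised the called inhibitors from 4 to 6 of 7, by adding Cdkn1b and Cdkn2c, and the called share of all genes to 31.8%. Leaving out any other single array gave 1 or 2 called inhibitors. Arrays also sat on slides in a lower and a higher range of slide numbers. Within the lower range, with 3 wild-type and 4 p53-null arrays, the differences were -0.99 for Cdkn1a, -0.34 for Cdkn1c, 1.69 for Cdkn2a and 0.36 for Cdkn2d. There limma called 0 of the 7 genes, with 4 at an unadjusted p under 0.05, and 11 of all 20305 genes tested. Within the higher range, with 2 wild-type arrays and 1 p53-null array and so no test, the differences were -1.12, -0.25, 2.73 and 0.24 in the same order. With the range as a block, Cdkn1a (-1.03, limma adjusted p = 0.0428) and Cdkn2a (1.98, limma adjusted p = 0.0278) were called, and Cdkn1c (limma adjusted p = 0.0750) and Cdkn2d (limma adjusted p = 0.0631) were not.

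**Figure D4:**
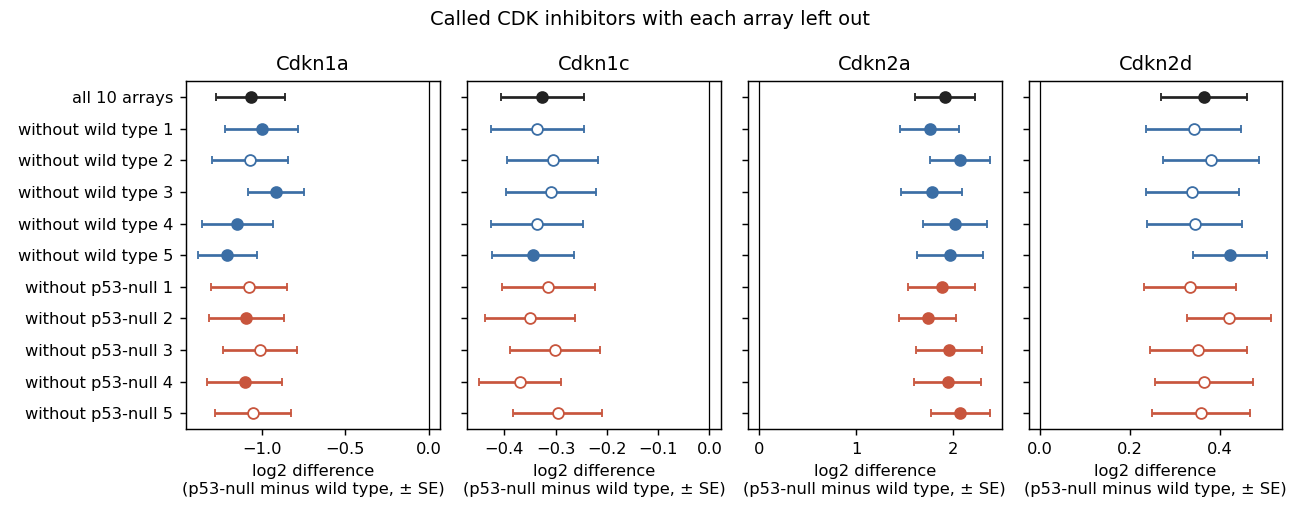
Log2 difference (p53-null minus wild type, ± SE) of the 4 called CDK inhibitors with all 10 arrays (black) and with each wild-type (blue) or p53-null (red) array left out. Filled symbols have a limma adjusted p under 0.05; Cdkn2a stayed called in all 10 fits, Cdkn1a in 6, and Cdkn1c and Cdkn2d in 1 each, that without wild-type array 5.

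Within groups, no pair of inhibitors passed a test for varying together. Over the 10 arrays' deviations from their group means, 0 of 21 pairs of inhibitors passed an exact permutation test within groups after adjustment, and 2 pairs, Cdkn1a with Cdkn1c and Cdkn2c with Cdkn2d, had an unadjusted p under 0.05 in the Pearson or the rank form. Cdkn1a and Cdkn2c had the most negative coefficient (Pearson's r = -0.813, exact permutation p = 0.0615, adjusted p = 0.326; Spearman's rho = -0.685, exact permutation p = 0.112). It was -0.562 without the 2 arrays farthest from the median of Cdkn1a.

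The genes most like each called inhibitor were picked as the highest Pearson's r among 16221 genes with a symbol, over 10 arrays. Genes read on the same array share its RNA sample, and these were picked for their r, so r is given without a p-value. The pick by level runs over both groups and so carries the inhibitor's group difference. A difference in the same direction was therefore largely set by the pick. By level, Cdkn1a was followed by Bivm (r = 0.977), Ap2b1 (0.976), Ak3 (0.975), Sesn2 (0.971) and Nabp2 (0.968). Sesn2 encodes a stress-induced sestrin, and its difference was -0.47 ± 0.13 (limma adjusted p = 0.0587). Nabp2, which encodes a single-stranded DNA binding protein, was called at -0.43 ± 0.098 (limma adjusted p = 0.0343).

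Within groups, the deviations of Cdkn1a were followed closely by those of Arrdc3 (r = 0.972), Rapgef2 (0.970), Csrnp1 (0.963) and Tiparp (0.953). Arrdc3 encodes an alpha-arrestin, and its Spearman's rho with Cdkn1a was 0.939. Without the 2 arrays farthest from the median, r was 0.919 for Arrdc3 and 0.852 for Tiparp. Between genotypes these 4 had limma adjusted p from 0.101 to 0.493.

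By level, Cdkn1c was most like Golph3 (r = 0.970), Plvap (0.953), Col6a2 (0.948), Gatad2a (0.939) and Fkbp8 (0.938). Plvap is a gene of capillary endothelium and Col6a2 encodes a collagen VI chain, and they fell by 0.40 and 0.78 on the log2 scale (limma adjusted p = 0.0296 and 0.0204). By deviations its nearest were Myo18a (r = 0.906), Ergic1 (0.890), Golph3 (0.878), Mob1b (0.860) and Kif3a (0.856). Cdkn2a was most like Klra17 (r = 0.961), Stac2 (0.951), Aqp9 (0.942), Clec4f (0.936) and Blk (0.935). These were all called higher, by 1.0 to 1.72, a direction that the pick by level favours. Blk, a kinase of B cells, is also in the B cell list above. By deviations, Bpifb6 (r = 0.945), Epyc (0.944), Spaca3 (0.927), Golga7b (0.922) and Nkain3 (0.922) came first, with limma adjusted p from 0.436 to 0.996 between genotypes.

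Cdkn2d was most like Pex16 (r = 0.983), Rgs10 (0.966), 5730416F02Rik (0.962), H2-Ab1 (0.961) and Phb2 (0.959) by level. H2-Ab1 encodes an MHC class II chain and was called at 0.57 ± 0.12 (limma adjusted p = 0.0268). By deviations, Bcl2l10 (r = 0.954), Pex16 (0.952), Mrpl20 (0.940), Srek1ip1 (0.938) and 2310022A10Rik (0.934) came first.

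Of 20 genes for CDKs, cyclins, Cdc25 phosphatases, Wee1 and the CDK-activating kinase, limma called 0, with 3 at an unadjusted p under 0.05 and a median difference of 0.0497, beside 0.0497 for all genes. At the share of 7.49% called over all genes, a count of 0 among 20 is near the background. The smallest p-values were those of Cdc25c, a phosphatase that activates CDK1, at 0.83 ± 0.29 (limma adjusted p = 0.102), and Ccne1, cyclin E1, at 0.58 ± 0.22 (limma adjusted p = 0.128). Both were called without wild-type array 5, Cdc25c at 1.05 (limma adjusted p = 0.0116) and Ccne1 at 0.71 (limma adjusted p = 0.0331). Cdk4, the main partner of the Ink4 proteins, differed by -0.043 ± 0.063, and Cdk2 by -0.0255 ± 0.18. The 10 marker genes of cycling cells had a median difference of 0.24, beside 0.0497 for all genes. Their differences ran from -0.27 to 0.54, with Mki67 at 0.20 ± 0.17, and their limma adjusted p from 0.109 to 0.737.

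Of 18 RB and E2F family genes, 1 fell: E2f7, which encodes a repressor E2F, at -0.54 ± 0.13 (limma adjusted p = 0.0409), and the list's median was -0.073. Its wild-type arrays ran from -2.39 to -1.78 and its p53-null arrays from -2.90 to -2.57, without overlap. E2f1, an activator E2F, was at 0.45 ± 0.13 (limma adjusted p = 0.0609), a value given after it was seen. Of 14 genes that mark or degrade CDK inhibitor proteins, 1 fell: Skp1, a subunit of the ubiquitin ligase that targets p27, at -0.35 ± 0.078 (limma adjusted p = 0.0325), and the median was -0.0055. The counts of 1 in 18 and 1 in 14 are near the 7.49% called over all genes. The calls of E2f7 and Skp1 were kept in 2 and 1 of the 10 fits without 1 array, and without wild-type array 5 the differences were -0.59 and -0.39 (limma adjusted p = 0.00906 and 0.00382).

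Of 33 genes for Polycomb repressors of the Ink4 locus and transcription factors of CDK inhibitor genes, 3 rose and 1 fell, with a median of 0.012, while 4.60% of all genes were called higher and 2.89% lower. Ets1, an ETS factor known to activate Cdkn2a, rose by 0.54 ± 0.099 (limma adjusted p = 0.0205). Tfap4, a repressor of Cdkn1a, rose by 0.64 ± 0.15 (limma adjusted p = 0.0347), and Zbtb17 (Miz1), which acts on Cdkn1a and Cdkn2b, rose by 0.40 ± 0.092 (limma adjusted p = 0.0355). Cbx8, a Polycomb protein, fell, at -0.41 ± 0.11 (limma adjusted p = 0.0498). Ets1 is also abundant in lymphocytes, whose markers rose as given above, and their part in its value was not tested.

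Further probes of these genes did not pass over probes. Those of Ets1 gave 0.39 ± 0.14, 0.25 ± 0.18 and 0.32 ± 0.19, that of Tfap4 gave 0.48 ± 0.32 and that of Cbx8 gave -0.064 ± 0.099. Ets1 kept its call in 7 of the 10 fits without 1 array, Tfap4 in 3, Cbx8 in 2 and Zbtb17 in 1. Without wild-type array 5, Ets1 was at 0.56, Tfap4 at 0.59, Zbtb17 at 0.47 and Cbx8 at -0.35, all called (limma adjusted p from 0.00124 to 0.0244). All 4 lists together had 6 called genes of 85, near the 7.49% of all genes. Without wild-type array 5, 19 of the 85 were called, and 31.8% of all genes were.

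**Figure D5:**
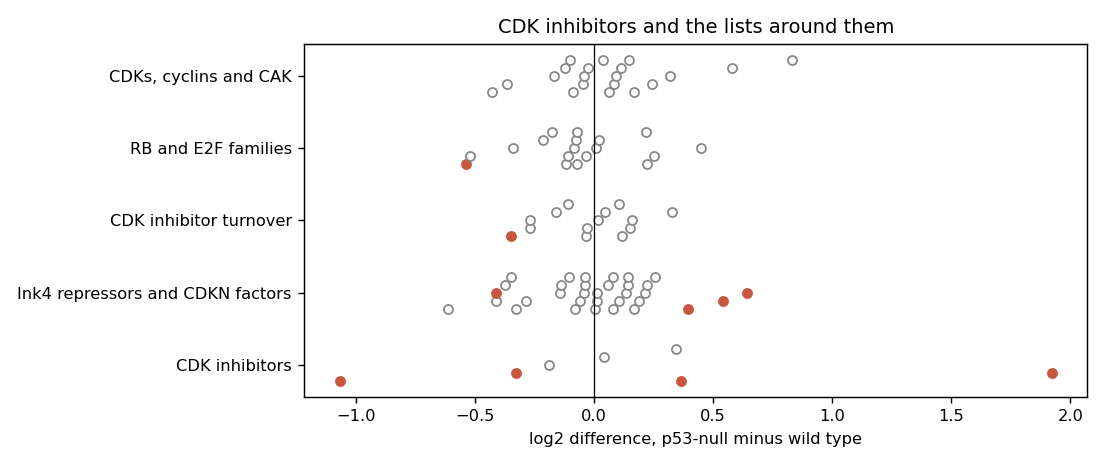
Log2 difference (p53-null minus wild type) of each gene in the 4 lists around the CDK inhibitors and of the 7 inhibitors. Red filled points are called by limma and open points are not, and vertical offsets only keep points apart; Cdkn1a at -1.07 and Cdkn2a at 1.92 lie outside the range of the 85 listed genes, -0.61 to 0.83.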

How the data were processed

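Cy3-labelled RNA of 10 lungs was scanned, and per the submitters' processing notes the signals come from Agilent Feature Extraction 9.5. The deposited intensity is the background-subtracted processed signal, per the file headers, and the series' value table held the same deposited intensity (largest difference 0). Each deposited value was turned into log2, less the 75th percentile of log2 signals of that array's non-control spots. Outlier-flagged spots were dropped, spots of a probe averaged, and the probe with the highest mean stood for a gene. A gene was tested if it stood well above background on 5 arrays or more, with limma 3.58.1 in R 4.3.3. Probe coordinates are those of the files (mm7), and promoter windows are RefSeq's (GRCm38.p6). The number of arrays limits the precision.

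Members and lists were chosen with earlier results of these data known. Named genes followed a rule: Trp53 and the 7 inhibitors at every probe, up to 4 called genes a list in order of p (2 where a list had no call), and for each called inhibitor the 5 genes with the highest r over values and over deviations. 1 gene chosen this way is left out of the text. Cdk4, Cdk2, Mki67 and E2f1 were added after their values were seen. Other settings tried were background, scaling, filter, choice of probe, slide, scan day, replicate number, variance model and each array left out. The code was tested on simulated data.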

Additional observations from a re-analysis of the deposited data

Results flagged for a closer look

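In 5 of 64 groups of 5 arrays examined, 1 array lay farther from the rest than Dixon's 95% limit allows, and chance gives about 1 in 20. Probe 1 of Cdkn1b read 1.33 on wild-type array 4, with the nearest wild-type array at 1.20. The other 4 were marker lists: B cell genes averaged 0.51 on p53-null array 1 (nearest -0.25), skeletal muscle genes 2.98 on wild-type array 2 (nearest -2.14), and squamous epithelial genes 2.35 on wild-type array 2 (nearest -3.55) and 1.12 on p53-null array 5 (nearest -3.64).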

How the results depend on the processing

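Without the 3 arrays high in skeletal muscle genes, limma called 10 genes, 0 inhibitors (4 at an unadjusted p under 0.05) and 0 list genes (14), with Cdkn1a at -1.10, Cdkn1c at -0.32, Cdkn2a at 2.32 and Cdkn2d at 0.37. Fitted without 1 array, the calls over all genes ran from 195 to 6652, the called inhibitors from 1 to 6 and the called list genes from 0 to 19. The differences ran from -1.21 to -0.91 for Cdkn1a, -0.20 to -0.16 for Cdkn1b, -0.37 to -0.30 for Cdkn1c, 1.74 to 2.08 for Cdkn2a, -0.021 to 0.088 for Cdkn2b (negative without p53-null array 2), 0.22 to 0.49 for Cdkn2c and 0.33 to 0.42 for Cdkn2d. Over all genes the lowest came without p53-null array 3, the highest without wild-type array 5.

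With the replicate number as a block, limma called 26 genes, 0 inhibitors (4 at an unadjusted p under 0.05) and 0 list genes (14). Cdkn1a at -1.07, Cdkn1c at -0.33, Cdkn2a at 1.92 and Cdkn2d at 0.37 lost their calls (limma adjusted p from 0.106 to 0.205). Same-numbered arrays had correlations of deviations of -0.22 to 0.0011 across genes, so no pairing was seen at that scale. These values cannot exclude a pairing that touches some genes only. Slide as a fixed block rests on the 1 slide that holds both groups and gave 0 calls (1139 genes, 1 inhibitor and 1 list gene at an unadjusted p under 0.05), with Cdkn1a at -0.65, Cdkn1c at -0.19, Cdkn2a at 2.25 and Cdkn2d at 0.23; on that slide alone Cdkn1b was at -0.31, Cdkn1c at -0.19 and Cdkn2b at 0.24. Slide as a random block left 1168 genes, 2 inhibitors and 5 list genes, without Cdkn1c (-0.32) and Cdkn2d (0.36). The slide number range as a block left 697 genes, 2 inhibitors and 1 list gene, without Cdkn1c (-0.31) and Cdkn2d (0.32). Within the lower range limma called 11 genes, 0 inhibitors and 0 list genes (11 at an unadjusted p under 0.05), with Cdkn1a at -0.99, Cdkn1c at -0.34, Cdkn2a at 1.69, Cdkn2b at -0.053 and Cdkn2d at 0.36; in the higher range Cdkn2a was at 2.73 and Cdkn2b at 0.34. Scan day as a block, which sets aside wild-type array 3, left 322 genes, 2 inhibitors and 1 list gene, without Cdkn1c (-0.31) and Cdkn2d (0.34).

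Median scaling left 583 genes, 2 inhibitors and 1 list gene (Cdkn1c -0.40, Cdkn2d 0.29, Cdkn2b -0.029). Without scaling limma called 23 genes, 0 inhibitors (3 at an unadjusted p under 0.05) and 0 list genes (10), with Cdkn1a at -1.23, Cdkn1c at -0.49, Cdkn2a at 1.76, Cdkn2b at -0.12 and Cdkn2d at 0.21, while the median of all genes moved by -0.16. Removing the GC trend left 742 genes, 76.0% of them higher against 61.4%, with 2 inhibitors and 3 list genes (Cdkn1c -0.39, Cdkn2d 0.36, Cdkn2b -0.026). Without a filter there were 538 genes, 2 inhibitors and 1 list gene, with Cdkn1c (-0.33) and Cdkn2d (0.37) not called. Cdkn2d also lost its call with normexp (0.32) and with probes averaged (0.37), and Cdkn1c with quantile normalization (-0.28). Array weights gave 6516 genes and 20 list genes and added Cdkn1b (-0.19) and Cdkn2c (0.51). At an adjusted p under 0.01, 56 genes and 0 inhibitors were called (5 inhibitors at an unadjusted p under 0.05). The exact permutation test, unadjusted, also passed Cdkn1b (-0.19). The filter on all 10 arrays left Cdkn2a out. The cause of these shifts was not tested. The value table, flagged spots kept, and the median over spots (added after seeing the data) left 4 called inhibitors.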
